A study of Mus musculus with 6 samples.

Results

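The low-density lipoprotein (LDL) receptor family was examined by RNA sequencing in a murine lung cancer line, Lewis lung carcinoma (LLC), after targeting of Calr, the gene of the ER chaperone calreticulin. The genes are 8 receptors, Lrp1, Lrp4, Lrp5, Lrp6, Lrp8, Lrp10, Vldlr and Sorl1, and Lrpap1, an ER chaperone of these receptors. They were taken by gene symbol, as members of a known family, with earlier results of these data known. All 9 were found among the 55291 genes of the deposited table. Per the labels, Calr KO cells received Cas9 and a guide RNA against Calr, and control cells, with the genotype WT, received Cas9 and a control guide. Both were otherwise untreated, were cultured for 10 days, then seeded in wells and collected after 48 hours. There are 3 Calr KO and 3 control libraries, all of batch 1. As the design text reads, the wells of a group were filled from 1 transduced population, and no clone is named, so p-values measure the spread between wells and not between independent knockouts.

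LDL receptor family proteins carry cysteine-rich repeats that bind ligands outside the cell, and short tails that connect them to clathrin-coated pits. LRP1 is a large endocytic and signalling receptor for proteases, protease inhibitors, lipoproteins and matrix proteins, and on phagocytes it is the co-receptor through which surface calreticulin is recognised. LRP5 and LRP6 are Wnt co-receptors, LRP8 and VLDLR receive reelin, LRP4 receives agrin, and SORL1 sorts cargo between the Golgi and endosomes. The product of Lrpap1, known as RAP, binds newly made receptors in the ER and keeps ligands off them until they reach the Golgi.

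The targeted gene was lower in the libraries labelled Calr KO. Calr had 4467, 4216 and 4453 normalised counts in the Calr KO libraries, against 10711, 10202 and 11047 in the controls, a log2 change of -1.28 (SE 0.04, limma adjusted p = 7.9e-07). Calreticulin protein was not analysed here. Normalised counts are the authors' gene counts after DESeq2 scaling, and each library summed to between 14040692 and 14099985 of them. Mitochondrial transcripts made up 2.88% to 2.97% of the counts in Calr KO and 2.78% to 2.80% in control libraries. Among markers of other cell types, 0 of 6 lymphocyte and 2 of 7 macrophage markers reached a mean of 10, and Cd3e, Ncr1, Nkg7, Adgre1 and Tyrobp were listed at 0. The macrophage sum was 184 to 254 in Calr KO and 181 to 227 in control libraries, and the lymphocyte sum 7.16 to 10.7 and 0.967 to 5.98. Of 5 endothelial markers 3 reached it, with sums of 57.0 to 66.5 and 47.6 to 70.6. Fibroblast markers were abundant, with 5 of 6 at a mean of at least 10 and sums of 22730 to 24345 in Calr KO and 22026 to 22915 in control cells. Of 9 lung epithelial markers the keratins Krt8 and Krt18 were expressed, with list sums of 4961 to 5240 and 4635 to 4932, while Epcam, Nkx2-1, Sftpc, Sftpa1 and Scgb1a1 were listed at 0. The part of these markers and of the mitochondrial share in the results on the receptors was not tested.

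Upstream sequences of 3 members are shown because they span the patterns described here: Lrp1 had the highest level per length of the members, Lrpap1 the largest measured difference in the opposite direction, and Vldlr was near 0. The sequences are the 250 bases before 1 RefSeq start per gene on GRCm38.p6. For Lrpap1 they are the 183 of these bases upstream of the gene as GENCODE M21 draws it. All read 5′ to 3′ on the gene's strand, with GC boxes (GGGCGG on either strand) in capitals.
Lrp1 (chr10:127621149-127621398, minus strand): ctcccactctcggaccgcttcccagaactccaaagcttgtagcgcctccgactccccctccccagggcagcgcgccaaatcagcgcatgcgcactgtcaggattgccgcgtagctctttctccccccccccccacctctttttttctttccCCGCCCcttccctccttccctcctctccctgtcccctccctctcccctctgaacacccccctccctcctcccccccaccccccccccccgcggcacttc
Lrpap1 (chr5:35105767-35105949, minus strand): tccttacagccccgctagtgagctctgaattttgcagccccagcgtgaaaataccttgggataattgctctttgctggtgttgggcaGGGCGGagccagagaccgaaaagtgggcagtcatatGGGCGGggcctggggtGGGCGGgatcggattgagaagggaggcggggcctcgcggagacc
Vldlr (chr19:27216234-27216483, plus strand): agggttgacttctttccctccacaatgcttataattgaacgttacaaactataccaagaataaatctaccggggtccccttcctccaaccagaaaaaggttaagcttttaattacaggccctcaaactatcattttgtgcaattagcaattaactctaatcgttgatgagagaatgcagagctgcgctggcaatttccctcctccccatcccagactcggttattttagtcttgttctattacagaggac
The table held promoters of 6 of the 9 genes. Lrp4, Lrp5 and Lrp6 were not matched. A GC box, the core of the site that Sp1-type factors bind, was found in 32.7% of 32851 promoters of this length. Lrpap1 had 5, all on its own strand, and 1.93% of promoters had 5 or more. Of these 5, 2 lay in the 67 bases that GENCODE places inside the gene, and the 3 others are in the letters above. The window of Lrp8 lay wholly inside the GENCODE gene and that of Lrp10 by 10 bases. Lrp1 had 1, on the opposite strand, Sorl1 had 1, and Lrp8, Lrp10 and Vldlr had 0. There were 3 windows for Lrp8 and 2 each for Vldlr and Sorl1, of which 1 per gene was used. The values of these 3 genes therefore describe that window only. The G+C content was 67.2% for Lrp1, 60.8% for Lrpap1 and 41.6% for Vldlr, against a median of 52.4% over all promoters. Sorl1, whose transcript was also near 0, had 69.6%. The ER stress element (CCAAT, any 9 bases, CCACG), to which stress-activated ATF6 binds together with NF-Y, was searched on both strands. It was in none of the 6 windows and in 0.113% of all promoters, so it overlapped no GC box in them. A match describes letters only and is not a measured site.

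Calr KO and control cells did not differ past the threshold in any member, with 0 of the 7 tested members higher and 0 lower by limma at an adjusted p under 0.05. Over all 13199 tested genes 0.197% were called higher and 0.0833% lower. Vldlr and Sorl1 were under the filter, a mean of 10 normalised counts. At an unadjusted limma p under 0.05 there were 3 members, Lrp1 and Lrp5 on the lower side and Lrpap1 on the higher, against 8.88% of all tested genes. These same 3 had no overlap between the groups, which held for 14.8% of tested genes. The non-overlap rests on small gaps: with libraries scaled to the same total it held for Lrp1 alone, and with libraries scaled to the same upper quartile for Lrp5 and Lrpap1. The median log2 change of the 7 tested members was -0.10, against 0.00036 for all tested genes.

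**Figure D1:**
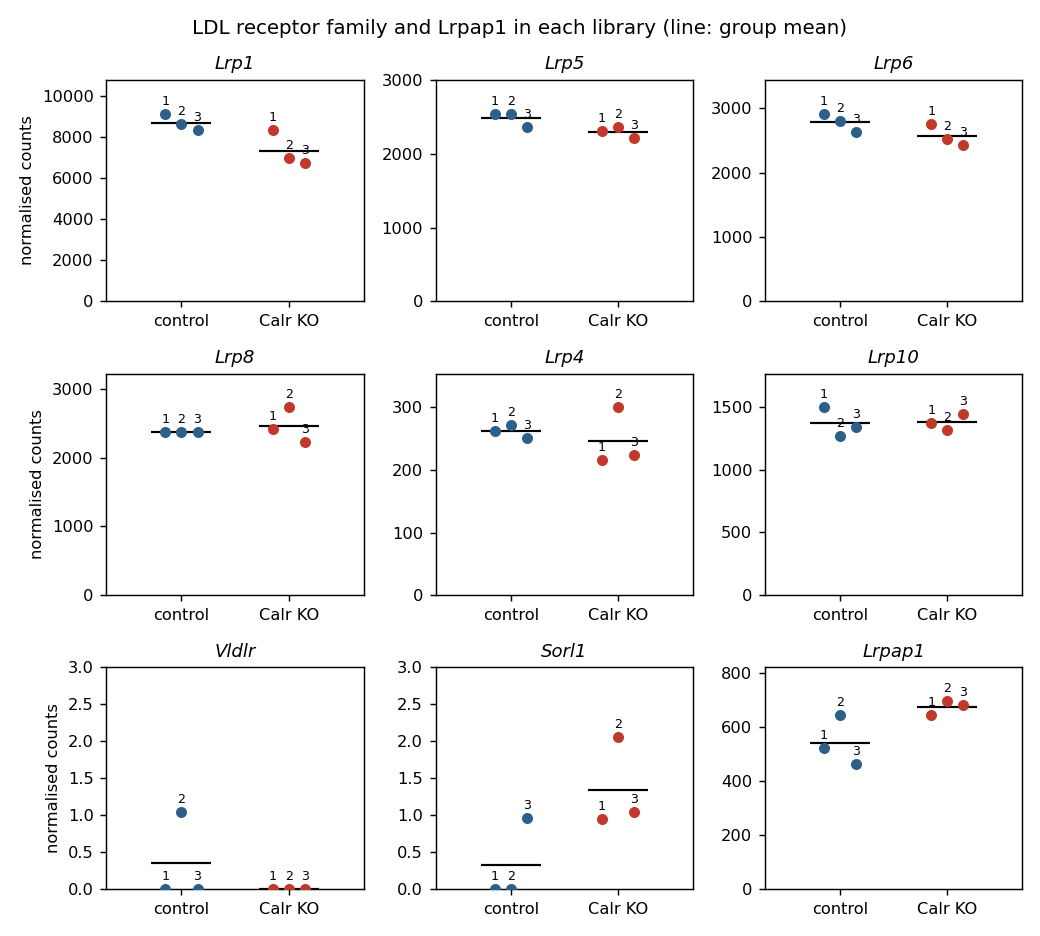
Normalised counts of the 9 members (vertical axes, from 0) in the 3 control and 3 Calr KO libraries (points with replicate numbers, line at the group mean). Lrp1 was at 6712 to 8337 in Calr KO and 8344 to 9144 in control cells, Lrpap1 at 644 to 696 and 462 to 643, and Vldlr and Sorl1 stayed at or under 2.05.

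Lrp1, the calreticulin co-receptor, had 8337, 6969 and 6712 normalised counts in the Calr KO libraries. The controls had 9144, 8625 and 8344. The groups did not overlap, but Calr KO replicate 1 lay just under the lowest control and apart from the other Calr KO libraries. The means were 7339 ± 873 and 8704 ± 406 (SD, n = 3), a log2 change of -0.25 (SE 0.07, 95% interval -0.42 to -0.09), or 1.19-fold lower in Calr KO. In such bulk samples fewer expressing cells and less transcript per cell cannot be told apart. Lrp1 ranked 267th of 13199 genes by p and did not pass (limma adjusted p = 0.339). Without Calr KO replicate 1 it passed, at -0.35 (adjusted p = 0.0368), and without any other single library the change was -0.28 to -0.19 with adjusted p values of 0.490 to 0.608. The relative SD between wells was 11.9% in Calr KO and 4.66% in control cells, while counting error at its depth of about 8042 reads a library was 1.12%. The gene (ENSMUSG00000040249.15) lies on the minus strand of chromosome 10, from 127538161 to 127621148 on GRCm38, and its longest coding transcript has 14.9 kb. For comparison, the 281 tested genes with a coding transcript of at least 10 kb had a median log2 change of 0.0028, and 6.41% of them lay below the change of Lrp1.

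**Figure D2:**
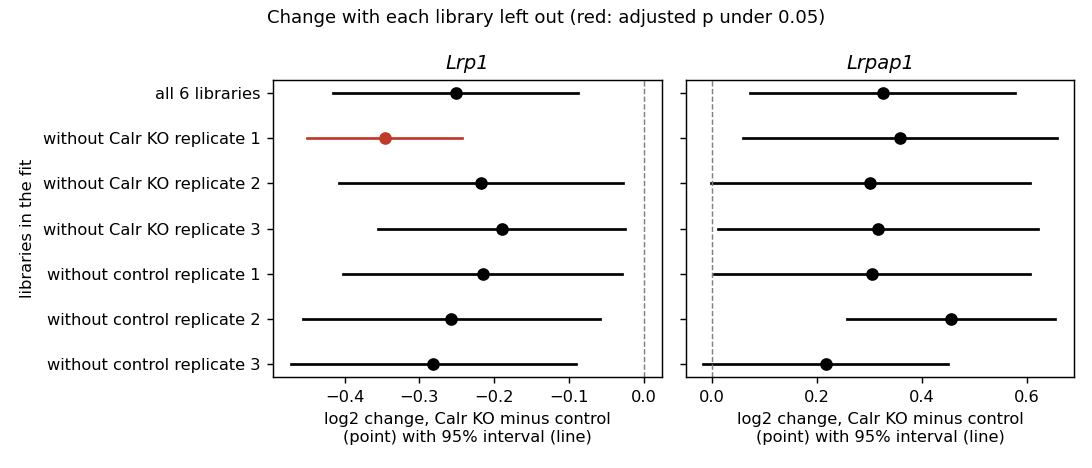
Log2 change of Lrp1 (left) and Lrpap1 (right), Calr KO minus control, with 95% limma intervals, for all 6 libraries and with each left out in turn. Lrp1 had an adjusted p under 0.05 only without Calr KO replicate 1 (red), and Lrpap1 in none of these fits.

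The Wnt co-receptors Lrp5 and Lrp6 showed small differences that did not pass. Lrp5 (chromosome 19, 3584828 to 3686564, minus strand) had 2308, 2365 and 2220 normalised counts in the Calr KO libraries, against 2547, 2538 and 2365 in the controls. The groups met at 2365, where Calr KO replicate 2 and control replicate 3 were nearly equal. Its log2 change was -0.11 (SE 0.05, 95% interval -0.22 to -0.01, limma adjusted p = 0.536). Lrp6 (chromosome 6, 134446476 to 134566965, minus strand) had 2749, 2530 and 2425 against 2919, 2800 and 2629, and the groups overlapped. Its log2 change was -0.12 (95% interval -0.25 to 0.01, limma adjusted p = 0.615). Leaving out 1 library gave -0.17, without Calr KO replicate 1, to -0.08, without Calr KO replicate 3. The groups did not overlap without Calr KO replicate 1 or without control replicate 3, and the lowest adjusted p was 0.528. Lrp6 and Lrp1 ranked the libraries alike within each group, with replicate 1 highest and replicate 3 lowest in both. The Lrp6 to Lrp1 count ratio, which does not depend on the scaling of a library, was 0.330, 0.363 and 0.361 in Calr KO and 0.319, 0.325 and 0.315 in control cells, with no overlap. The Lrp5 to Lrp1 ratio was 0.277, 0.339 and 0.331 against 0.279, 0.294 and 0.284, and the groups overlapped. For Lrp8, the ratio to Lrp1 was 0.290, 0.392 and 0.331 against 0.259, 0.275 and 0.284, with no overlap. All ratios to Lrp1 share it as the divisor, so their non-overlap is not particular to 1 pair. These ratios were formed after the values were seen and carry no test. The Lrp5 to Lrp6 ratio was 0.897 ± 0.0503 in Calr KO wells, against 0.893 ± 0.0181 in control wells (SD, n = 3), and the groups overlapped.

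Among the receptors of reelin and agrin neither tested gene passed. Lrp8, which encodes the reelin receptor ApoER2, had 2420, 2733 and 2223 normalised counts in the Calr KO libraries, against 2369, 2370 and 2371 in the controls. Its controls agreed within an SD of 0.796, less than the counting error of about 49.2 reads, and all 3 lay inside the range of the Calr KO libraries. The log2 change was 0.05 (95% interval -0.11 to 0.20, limma adjusted p = 0.883), and it was -0.03 without Calr KO replicate 2. The gene lies on chromosome 4 from 107802261 to 107876840, plus strand. Lrp4 (chromosome 2, 91457511 to 91513779, plus strand), the agrin receptor, had 215, 300 and 223 against 262, 272 and 251. Calr KO replicate 2 was the highest of all 6 libraries and the other Calr KO libraries the lowest, so the groups overlapped. Its log2 change was -0.10 (95% interval -0.40 to 0.20, limma adjusted p = 0.867). It was -0.25 without Calr KO replicate 2, where the groups did not overlap (adjusted p = 0.562), and -0.01 without Calr KO replicate 1, -0.04 without replicate 3 of that group.

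Vldlr, the other reelin receptor, and the sorting receptor Sorl1 were near the limit of detection in both groups. Vldlr (chromosome 19, 27216484 to 27254231, plus strand) was listed at 0 in 5 libraries and at 1.03 normalised counts, an estimated 1 read, in control replicate 2. Sorl1 (chromosome 9, 41964720 to 42124297, minus strand) had an estimated 1, 2 and 1 reads in the Calr KO libraries and 0, 0 and 1 in the controls. A library held an estimated 13571210 to 14918661 reads, and a count of 0 allows up to 3 reads in a library, or 2.83 to 3.12 normalised counts. Every value of Vldlr and Sorl1 was under that floor, which strictly applies only to a count of 0. With so few reads no fold is given, and both genes were under the filter for testing. These limits cover counting error only.

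Lrp10, a smaller relative found in endosomes and the Golgi, had 1369, 1318 and 1444 normalised counts in the Calr KO libraries, against 1497, 1267 and 1341 in the controls. All 3 Calr KO values lay within the range of the controls. Its log2 change was 0.01 (95% interval -0.14 to 0.17, limma adjusted p = 0.977), and it was below 0 without Calr KO replicate 3 (-0.02) and without replicate 2 (-0.04) or 3 (-0.00090) of the controls. The gene is on chromosome 14 from 54464137 to 54471497, plus strand. Antisense genes annotated over Lrp1, Lrp8, Lrp10 and Sorl1 had means of at most 3.02 normalised counts, and whether counting used strand was not given.

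Lrpap1, the receptor chaperone, was the tested member with the largest measured difference over all 6 libraries; without control replicate 3 its log2 change of 0.22 was smaller in size than that of Lrp1, -0.28. It had 644, 696 and 682 normalised counts in the Calr KO libraries, against 522, 643 and 462 in the controls. The Calr KO libraries lay close together, whereas control replicate 2 stood at 643, just under the lowest Calr KO value of 644. The means were 674 ± 27.0 and 542 ± 92.2 (SD, n = 3), 1.25-fold higher in Calr KO, with a log2 change of 0.33 (SE 0.11, 95% interval 0.07 to 0.58). It did not pass (limma adjusted p = 0.458). Leaving out 1 library gave 0.22 to 0.45, with the extremes without control replicates 3 and 2, and the lowest adjusted p was 0.157, without control replicate 2. The control relative SD of 17.0% was above the counting error of 4.06%, and that of Calr KO was 4.00%. The gene (ENSMUSG00000029103.16) lies on the minus strand of chromosome 5 from 35091501 to 35105766.

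Lrpap1 and Lrp1 were also set against each other within each library. The Lrpap1 to Lrp1 count ratio was 0.0772, 0.0998 and 0.102 in Calr KO and 0.0571, 0.0745 and 0.0554 in control cells. All Calr KO ratios were above all control ratios, by a factor of 1.49 between the means. Control replicate 2, the highest control, came close to Calr KO replicate 1, the lowest of its group. The ratio was formed after the single genes were seen, so it is a description with no test, and with 3 libraries against 3 an exact permutation test could not go below p = 0.1.

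**Figure D3:**
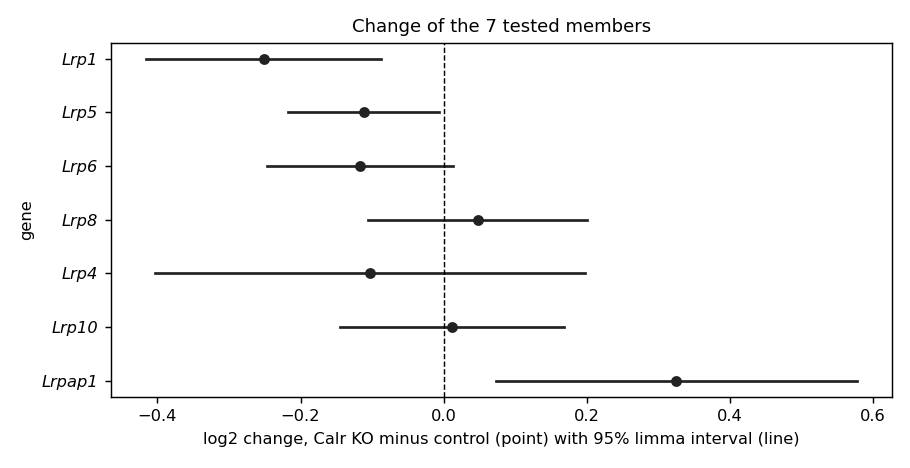
Log2 change, Calr KO minus control (point), with the 95% limma interval (line), of the 7 tested members. The intervals of Lrp1 and Lrp5 lay below 0 and that of Lrpap1 above 0 before adjustment, and none of the 7 passed after it.

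Levels were compared between members per kb of each gene's longest coding transcript in GENCODE M21, since longer transcripts collect more reads. In control cells Lrp1 was highest, at 585 ± 27.3 normalised counts per kb (SD, n = 3), above 86.2% of tested genes with a coding length. Lrp5 followed at 481 ± 19.9, Lrp8 at 358 ± 0.120, Lrp10 at 324 ± 27.8 and Lrp6 at 297 ± 15.6. Lrpap1 stood at 182 ± 30.9 per kb, below each of these receptors, and Lrp4 at 33.0 ± 1.36 per kb. Lrp10 and Lrp6 overlapped between libraries, and the other neighbours among the tested members did not. In Calr KO cells the order per kb was the same, but Lrp1 at 493 ± 58.6 now overlapped Lrp5 at 445 ± 14.2, and Lrp8 overlapped Lrp10. The place of Lrp5 depends on the transcript: per kb of its longest transcript of any kind it had 279 in control cells, below Lrp6.

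**Figure D4:**
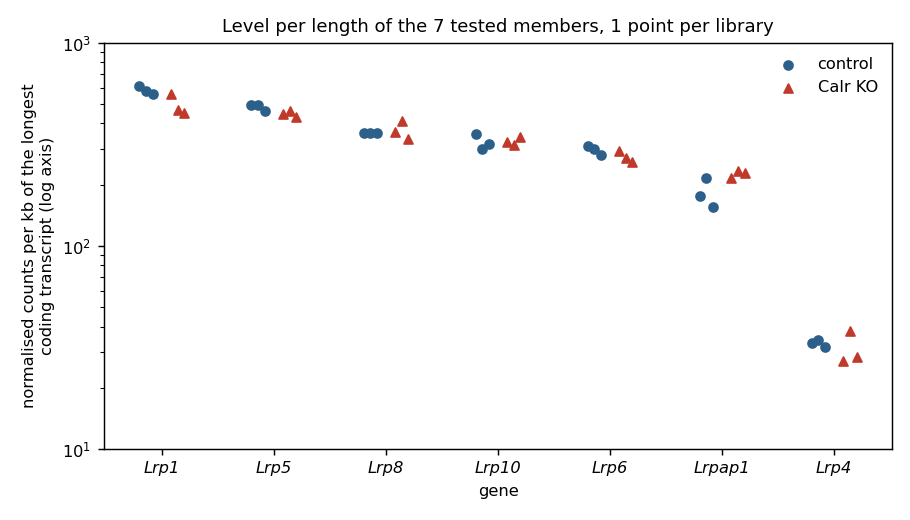
Normalised counts per kb of the longest coding transcript (log axis) for the 7 tested members, with 1 point per control (circles) and Calr KO library (triangles). The members span from 27.2 for Lrp4 in Calr KO replicate 1 to 614 for Lrp1 in control replicate 1.

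Other receptors with LDL receptor repeats did not differ past the threshold either. Of 8 such receptors listed, 7 were tested, 0 passed in either direction (limma), 0 had an unadjusted p under 0.05, and the median log2 change was -0.04. Lrp2, or megalin, which is best known from kidney tubules, had 807 ± 41.5 against 832 ± 26.5 (SD, n = 3), and Lrp1b was listed at 0 in all libraries.

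The folding helpers, ER proteins that may handle the receptors or their ligands, were the list around the family with the most calls. Of 9 tested folding helpers 5 rose and 0 fell (limma, adjusted p under 0.05), against 0.197% of all genes called higher, and the median log2 change was 0.30. The list holds general ER chaperones chosen with their rise in these cells already known, so its count is not independent evidence. Pdia3, the disulfide isomerase that partners calreticulin, rose 1.60-fold from 10104 ± 505 to 16149 ± 999 normalised counts (SD, n = 3, limma adjusted p = 2.9e-04). Hspa5, the chaperone BiP, rose 1.42-fold (adjusted p = 0.0014), and Creld2, a secreted ER stress protein, rose 1.66-fold (adjusted p = 0.0019). The other 2, outside the naming rule, were Manf and the calreticulin homologue Canx, which rose by 0.51 and 0.30 on the log2 scale. Without replicate 1 or 3 of Calr KO, or replicate 2 or 3 of the controls, the count was 3, and it was 0 with 1 variance prior for all genes. Mesd, the dedicated chaperone of Lrp5 and Lrp6, is outside the naming rule and was chosen after its values were seen. It had 667 ± 153 normalised counts in the Calr KO libraries, against 797 ± 136 in the controls (SD, n = 3), with a log2 change of -0.27 that did not pass (limma adjusted p = 0.722) and was -0.42 to -0.08 with 1 library left out. Lrpap1 and Mesd thus had measured changes of opposite sign, each short of the threshold, and that difference was not tested.

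Among 20 tested ligands of LRP1, 2 rose, 0 fell and the median log2 change was -0.05. The 2 were Hspa5 and Hsp90b1, which are ER chaperones first and count as ligands only where they are outside the cell. Hsp90b1 rose 1.41-fold from 30390 ± 736 to 42848 ± 1600 (SD, n = 3, limma adjusted p = 7.5e-05). With 1 variance prior for all genes neither passed. At an unadjusted p under 0.05 there were 7 of 20, against 8.88% of all tested genes, among them Lpl, Mmp13, Thbs2 and Mmp2, named after their values were seen. Lpl, the lipoprotein lipase that LRP1 clears, had a log2 change of -0.30 (limma adjusted p = 0.302), and the collagenase Mmp13 one of -0.43 (limma adjusted p = 0.363). The matrix protein gene Thbs2 was at -0.10 and the gelatinase Mmp2 at 0.32 on the log2 scale.

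In the remaining lists no gene passed. These were 16 tested adaptors and endocytosis genes, 11 sheddases and proteases, 18 Wnt receptors and modulators, 19 Wnt signalling genes and targets, 9 genes of the reelin and agrin pathways and 14 VPS10 receptors and retromer genes. By limma each had 0 called higher and 0 called lower, and 2, 1, 2, 4, 1 and 1 genes with an unadjusted p under 0.05, against 8.88% of all genes. Their median log2 changes lay between -0.03 and 0.01. Ap2m1, the AP-2 subunit that reads sorting signals in receptor tails, had 4352, 4573 and 4243 normalised counts in the Calr KO libraries, against 4023, 3812 and 3817 in the controls, which did not overlap, and a log2 change of 0.18 (limma adjusted p = 0.209). Clathrin heavy chain, Cltc, had 6776 ± 30.8 against 6784 ± 178 (SD, n = 3). The sheddases Adam17 and Adam10 had log2 changes of 0.07 and -0.05 (limma adjusted p = 0.606 and 0.786).

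Downstream of Lrp5 and Lrp6, Ctnnb1, which encodes beta-catenin, had 8280 ± 305 normalised counts in the Calr KO libraries, against 8323 ± 275 in the controls (SD, n = 3), a log2 change of -0.01 (95% interval -0.09 to 0.07). Myc, a common Wnt target, had 15223, 15890 and 15342 against 16238, 17212 and 16469. These groups did not overlap, and the log2 change of -0.10 did not pass (limma adjusted p = 0.326). Kremen1, a receptor that removes LRP6 from the surface, had 2225 ± 71.0 against 2406 ± 16.0 (SD, n = 3, limma adjusted p = 0.482). Dkk2, a secreted ligand of LRP5 and LRP6 named after its values were seen, had the largest measured change of the tested genes in both Wnt lists. It had 133, 143 and 161 normalised counts in the Calr KO libraries, against 78.7, 85.9 and 91.6 in the controls. These groups did not overlap, and the log2 change of 0.76 (95% interval 0.45 to 1.07) did not pass (limma adjusted p = 0.0999), nor did it in any fit without 1 library (0.69 to 0.82, adjusted p = 0.187 to 0.282). The Wnt receptor gene Ryk had a log2 change of 0.02 (limma adjusted p = 0.955). Agrn, the ligand of LRP4, had 4863 ± 166 against 4999 ± 181 (SD, n = 3), and the kinase gene Akt1 a log2 change of 0.01.

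**Figure D5:**
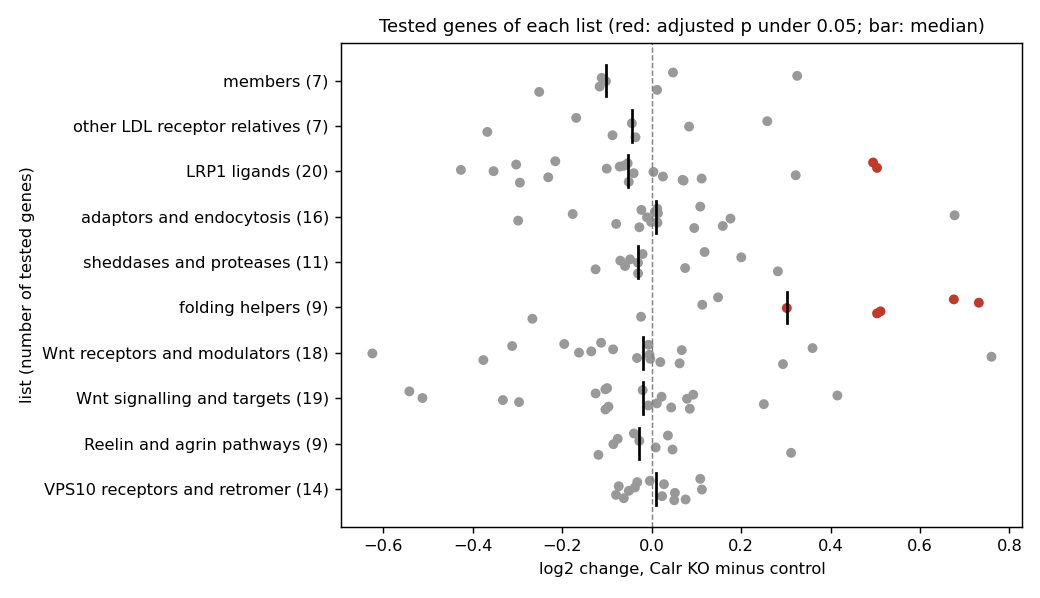
Log2 change, Calr KO minus control, of each tested gene of the members and of 9 fixed lists (number of tested genes in brackets), with the median as a bar and genes with an adjusted p under 0.05 in red. The red points are 5 folding helpers and 2 LRP1 ligands, of which Hspa5 is in both lists, and the members have none.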

How the data were processed

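The deposited table gives a signal per gene and library: gene counts that the authors divided by DESeq2 size factors, per the labels. Tools named in the submitters' processing notes, with neither role nor order, are STAR 2.6.1d, Salmon 0.14.1 and DESeq2 1.34.0, and the build is mm10. The annotation release was not given in the sources used here. To estimate reads, the most frequent low value of a library was taken as 1 read; higher values were not whole reads, so no count model was run.

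Genes with a mean of at least 10 were put on the scale log2(value + 1) and tested by limma (3.58.1, R 4.3.3). The test is two-sided, its variance prior follows the mean, and p-values were adjusted by Benjamini-Hochberg over all 13199 tested genes at a threshold of 0.05. Fold changes are on that scale, which understates low genes. The method was tested on simulated data in which the noise of a gene was set by its mean alone. That test does not cover how the calls depend on the variance prior. Coordinates and lengths are from GENCODE M21 on GRCm38 (mm10), with a coding length for 87.4% of tested genes; promoters are from RefSeq.

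Members and lists were chosen with earlier results of these data known. Named were Calr, all members, up to 3 called genes of each of 9 lists (otherwise the 2 most abundant), and the 3 genes most like Lrp1; some of these are not reported here. Alternatives were other pseudocounts, filters, scalings, 1 variance prior, a block for the replicate number, and the omission of each library in turn.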

Additional observations from a re-analysis of the deposited data

How the results depend on the processing

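No member was called higher in any of the 15 alternative fits, and in 14 of them none was called lower; without Calr KO replicate 1 the count was 1, Lrp1. Over all genes 26 were higher and 11 lower. With 1 variance prior for all genes 1 was higher and 1 lower, and leaving out each library in turn gave 14 to 25 higher and 4 to 9 lower. The replicate number as a replicate block gave 21 higher and 5 lower genes, 0 members called and an adjusted p of 0.112 for Lrp1. Same-numbered libraries did not deviate together over the tested genes (r of -0.0555, -0.0108 and 0.00145). Calr KO replicate 1 correlated best with control replicate 2, at an r of only 0.0534. Such values near 0 show no shared deviation, and whether wells were handled in pairs cannot be told from them. With libraries scaled to the same total 1 member, Lrp1, had groups that did not overlap. Lrp5 had 279 per kb of its longest transcript. With libraries scaled to the same upper quartile Cltc was at 0.00020 instead of -0.0013. Leaving out 1 library turned the sign of uncalled genes, with ranges of -0.0313 to 0.1177 for Lrp8, -0.0418 to 0.0786 for Lrp10, -0.0234 to 0.0102 for Cltc, -0.0246 to 0.0455 for Ryk, -0.0356 to 0.0194 for Ctnnb1 and -0.0164 to 0.0446 for Akt1. Scaling turned the sign of no member. Vldlr and Sorl1 had too few reads for a fold, and the other members had relative counting errors of 1.12% to 6.28%.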

Other observations

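Genes whose log2 values followed Lrp1 closely were sought among 9868 genes with a mean of at least 100. The closest was Inpp5e, a phosphoinositide phosphatase of cilia (Pearson's r = 0.996). The r is a description over 6 libraries that share their depth and their split into groups, with no test, and among so many genes some follow any pattern closely. Inpp5e had 267, 219 and 214 normalised counts in the Calr KO libraries, against 303, 277 and 273 in the controls, with Calr KO replicate 1 nearest to the controls, as for Lrp1. It did not pass the threshold (limma adjusted p = 0.509).

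The relatives of Sorl1 were also scarce. Sorcs1, Sorcs2 and Sorcs3 had means of at most 2.51 normalised counts in either group, and Sort1, the sortilin gene, was the expressed VPS10 receptor, at 237 ± 8.97 in Calr KO wells, against 229 ± 16.1 in control wells (SD, n = 3). The retromer subunit gene Vps35 had 2585 ± 88.7 against 2699 ± 87.6, and Snx27 2872 ± 123 against 2946 ± 63.3 (SD, n = 3). The reelin gene Reln and the adaptor gene Dab1 had means of at most 3.36, so the cells that held Lrp8 transcript held little of these 2. Other listed adaptor genes were expressed, among them Dab2, at 940 ± 4.24 in Calr KO wells, against 881 ± 47.6 in control wells (SD, n = 3).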
